A study of Mus musculus with 9 samples.

Results

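The genes described here encode the contractile apparatus of smooth muscle: the smooth muscle actins Acta2 and Actg2, the myosin heavy chain Myh11, the myosin light chain Myl9, the tropomyosin Tpm2, the actin-binding proteins Tagln, Cnn1, Smtn and Lmod1, and the intermediate filament protein Des. These 10 genes were taken by symbol, as all probes that the platform annotation assigns to them. The array held 16 such probes for 9 of the 10 genes, and no probe for Myl9. Of the 16 probes 15 were kept, a probe being kept when its detection p was under 0.05 on 3 or more of the 9 arrays. The 9 genes measured are part of 10073 measured genes, out of 16593 with a symbol on the array. Unless another probe is named, a gene's value is that of its brightest probe.

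The cells were tomato-positive cells of the periosteum of the tibia, sorted from αSMACreERT2/Ai9 mice of strain B6;129S6. In these mice the alpha smooth muscle actin promoter, that of Acta2, drives a Cre recombinase that works only after tamoxifen and switches on the red fluorescent protein tomato of the Ai9 allele. All animals, unfractured ones included, carried both alleles and received tamoxifen at 75 µg per g, given 2 times. The unfractured group held 3 pools from animals of 4 to 5.5 months, collected 2 days after tamoxifen. The day 2 group held 3 pools of fractured tibial periosteum collected 2 days after fracture, from animals of 2 to 5.5 months. The day 6 group held 3 pools of periosteum with soft callus collected 6 days after fracture, from animals of 3 to 5.5 months, so that its tissue differs as well. A pool stood for 4 to 9 animals of one sex, with 2 pools of males in a group and 1 of females. No unfractured pool was collected at day 6, so that fracture and day of collection cannot be told apart there. In such sorted pools, fewer cells of a type and less RNA per cell cannot be told apart either.

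Smooth muscle contracts when phosphorylated myosin pulls on thin filaments of actin and tropomyosin, and proteins such as calponin, transgelin, smoothelin and leiomodin bind, brake or build those filaments. Most of these genes share a control element, the CArG box, which the transcription factor SRF binds together with its coactivator myocardin. The tomato label is inherited: a cell marked when its Acta2 promoter was active keeps the label, as do its descendants, whether or not they go on expressing Acta2. The sort therefore does not require these genes to be expressed at the time of collection. It still chose cells, or descendants of cells, whose Acta2 promoter was active around the time of tamoxifen. The unfractured pools were collected 2 days after tamoxifen, so their contractile levels cannot be taken as independent of the label. The part of this choice in the differences between groups was not tested.

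The bases upstream of a gene's start are shown for Acta2, because its promoter drives the label, and for Des and Lmod1, 2 members with large differences at day 6. Sequences are from RefSeq on build GRCm38.p6, written 5′ to 3′ on the strand of the gene, and cover the 250 bases before the start. Capitals mark CArG-like boxes, that is CC, 6 bases of A or T of which 1 may be G or C, and GG.
Acta2, chr19:34255374-34255623, minus strand: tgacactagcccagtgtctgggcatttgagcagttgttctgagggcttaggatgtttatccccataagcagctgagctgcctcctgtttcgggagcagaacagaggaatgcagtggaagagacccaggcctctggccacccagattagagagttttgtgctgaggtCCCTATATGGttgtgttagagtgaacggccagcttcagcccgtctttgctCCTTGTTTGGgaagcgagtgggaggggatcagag
Des, chr1:75360042-75360291, plus strand: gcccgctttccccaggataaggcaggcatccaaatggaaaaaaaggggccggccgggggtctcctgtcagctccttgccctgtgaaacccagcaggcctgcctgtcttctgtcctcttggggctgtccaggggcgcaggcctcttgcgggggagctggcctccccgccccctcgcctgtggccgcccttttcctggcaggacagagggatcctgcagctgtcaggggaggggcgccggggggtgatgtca
Lmod1, chr1:135324563-135324812, plus strand: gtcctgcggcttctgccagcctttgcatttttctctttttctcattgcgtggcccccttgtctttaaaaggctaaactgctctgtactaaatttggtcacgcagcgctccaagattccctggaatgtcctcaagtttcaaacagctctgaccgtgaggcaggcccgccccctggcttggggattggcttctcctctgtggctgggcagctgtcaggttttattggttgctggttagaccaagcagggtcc

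The Acta2 window holds 2 CArG-like boxes, from -84 to -75 and from -34 to -25 counted from the start, and no box with A or T at all 6 central positions. The windows of Des and Lmod1 hold neither kind. Promoters of 7 of the 10 members were in the table, the other 4 being those of Myl9, Tpm2, Cnn1 and Smtn. Of the 7, 1 had a box with A or T throughout, that of Myl9, against 1.47% of 32851 promoters, and 2, those of Acta2 and Myl9, had at least 1 box when 1 G or C was allowed, against 8.59%. The motif reads the same on both strands, so a search of 1 strand covers both. These matches describe letters in a short window and show no binding.

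Signal varied between arrays: 40.4% to 55.2% of the 25697 probes were detected per array, with 75th percentiles of the raw intensity of 302 to 892. In each group 1 male pool stood apart by its leukocyte transcripts. Over 17 genes of macrophages and other leukocytes the mean log2 intensity reached 10.98 (unfractured replicate 3), 12.31 (day 2 replicate 1) and 10.68 (day 6 replicate 1), against 6.92 to 8.34 over the remaining 6. Results are therefore given over all 9 pools and over the 6 leukocyte-poor pools (1 male and 1 female per group), a division made with earlier results of these data known. The contractile genes move with it: within each group the leukocyte-rich pool had the lowest mean of the 9 members, 10.07 against 12.15 and 11.74 in unfractured periosteum, 8.37 against 11.21 and 10.79 at day 2, and 8.93 against 9.87 and 9.50 at day 6. Leukocyte-poor refers to those 17 genes alone. Over 10 neutrophil genes unfractured replicate 1, a leukocyte-poor pool, had a mean of 12.57. That was near the 12.54 of unfractured replicate 3 and above the 9.68 to 10.65 of the other leukocyte-poor pools. The part of leukocyte RNA in these values was not tested. The p-values measure the spread between these pools, whose number limits the precision of every value.

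Acta2, whose protein is the alpha smooth muscle actin, was detected by all 4 of its probes in every pool. In log2 units after normalisation its brightest probe measured 16.07, 16.09 and 15.57 in unfractured replicates 1 to 3, 14.11, 15.75 and 15.93 at day 2, and 14.09, 15.27 and 15.22 at day 6. All day 6 pools lay below all unfractured pools, while the day 2 pools overlapped both groups. This probe worked close to the upper end of the scanner: its raw intensity was 97.6% to 100% of the array's maximum in 4 pools, unfractured replicates 1 and 2 and day 2 replicates 2 and 3, and 13.6% and 16.3% in the leukocyte-rich pools of day 2 and day 6. Differences at that end may be compressed, so the other 3 probes of Acta2 were read as well, a choice made after the values were seen.

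The other Acta2 probes gave larger differences in the same direction. The 2nd brightest measured 15.50, 15.07 and 13.76 in unfractured pools, 11.84, 14.92 and 14.21 at day 2, and then 13.01, 12.85 and 11.76 in day 6 replicates 2, 3 and 1, so that again no day 6 pool reached an unfractured one. Day 6 minus unfractured was -1.05 ± 0.52 (log2 change ± SE, n = 3 pools per group) with the brightest probe, -2.24 ± 0.79 with the 2nd, -2.15 ± 0.45 with the 3rd and -2.02 ± 0.53 with the dimmest. Fitted with all other probes, the 3rd brightest passed (limma adjusted p = 0.0456), and the brightest (adjusted p = 0.296), the 2nd (adjusted p = 0.160) and the dimmest (adjusted p = 0.0834) did not. In the 6 leukocyte-poor pools all 4 probes fell at day 6, by 0.83, 2.36, 2.13 and 2.13 in that order (limma adjusted p = 0.0251, 0.00683, 0.0108 and 0.0116). Before normalisation the raw intensities of the 3rd brightest overlapped in these pools (5050 and 6922 unfractured, 6009 and 4104 at day 6). Those of the dimmest did too (3252 and 4519, then 3910 and 2673), while those of the brightest and the 2nd did not. The part of normalisation between arrays of unlike signal in these falls was not tested.

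**Figure D1:**
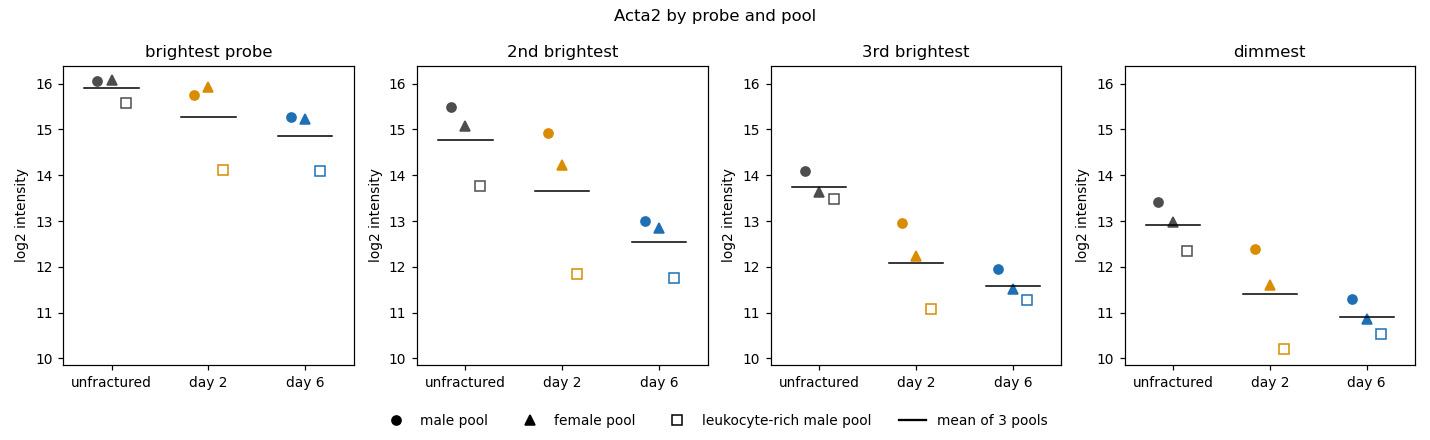
Log2 intensity of Acta2 (vertical axis) in the 9 pools by group (horizontal axis), 1 panel per probe from the brightest to the dimmest. Each point is a pool, marked by sex and leukocyte content, and the line is the mean of 3 pools; the brightest probe spans 14.09 to 16.09 and the 2nd brightest 11.76 to 15.50.

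Myh11, the smooth muscle myosin heavy chain and the motor of the apparatus, showed the widest differences of the 9 genes. It measured 14.64, 14.07 and 11.001 in unfractured replicates 1 to 3, 8.52, 12.92 and 12.46 at day 2, and 8.82, 9.78 and 9.44 at day 6. All day 6 pools lay below all unfractured pools, and day 2 held both the lowest pool of all 9 and 2 pools between those of the other groups' leukocyte-poor pools. Tagln, transgelin, an actin-binding protein of smooth muscle, measured 11.70, 11.23 and 9.30 in unfractured pools, 5.85, 10.82 and 9.90 at day 2, then 7.20, 8.20 and 7.56 at day 6. Its day 6 pools too lay below all unfractured ones, and its lowest value was again that of day 2 replicate 1.

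Lmod1, leiomodin 1, which starts new actin filaments in smooth muscle, measured 9.51, 8.82 and 7.20 in unfractured pools, 5.13 (not detected), 8.56 and 8.10 at day 2, then 6.04, 5.90 and 5.69 at day 6. The 3 day 6 pools were close together and below the unfractured ones whatever their leukocyte content. They were detected, but the lowest detected signal on these arrays was 5.54, 5.55 and 5.66. So near the limit of detection, neither their closeness nor the size of any Lmod1 difference at day 6 is exact. Tpm2, beta-tropomyosin, which lies along the actin filament, measured 14.01, 13.20 and 12.46, then 10.55, 12.72 and 12.17, then 10.60, 11.74 and 11.04 in the same order, also with no overlap between day 6 and unfractured. Des, desmin, an intermediate filament protein of smooth and of skeletal muscle, measured 12.14, 12.00 and 8.82 in unfractured pools, 8.28, 11.07 and 10.88 at day 2, then 7.00, 9.28 and 8.96 at day 6. Here the groups overlapped, because unfractured replicate 3, the leukocyte-rich pool, lay below 2 of the 3 day 6 pools.

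The remaining 3 members are Smtn, Actg2 and Cnn1. Smtn, smoothelin, a protein of fully contractile smooth muscle, measured 12.48, 11.97 and 11.20 in unfractured pools, 10.88, 11.77 and 11.51 at day 2, then 11.76, 11.66 and 11.87 at day 6, where the pools spanned less than those of either other group and lay inside the unfractured range. Its other 2 probes gave log2 changes of -0.07 ± 0.42 and -0.10 ± 0.62 from unfractured to day 6, close to the -0.12 ± 0.37 of the brightest. Actg2, the gamma actin of visceral smooth muscle, measured 12.23, 11.61 and 9.95, then 6.96, 11.89 and 10.15, then 9.69, 11.09 and 10.71, and all 3 groups overlapped. Actin genes are nearly identical in their coding sequence, and whether these probes tell them apart was not tested. Cnn1, calponin 1, a brake on myosin activity, was detected in only 1 pool of each group, with log2 intensities of 5.00 to 6.64 over all pools, so that its differences are near the limit of detection.

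**Figure D2:**
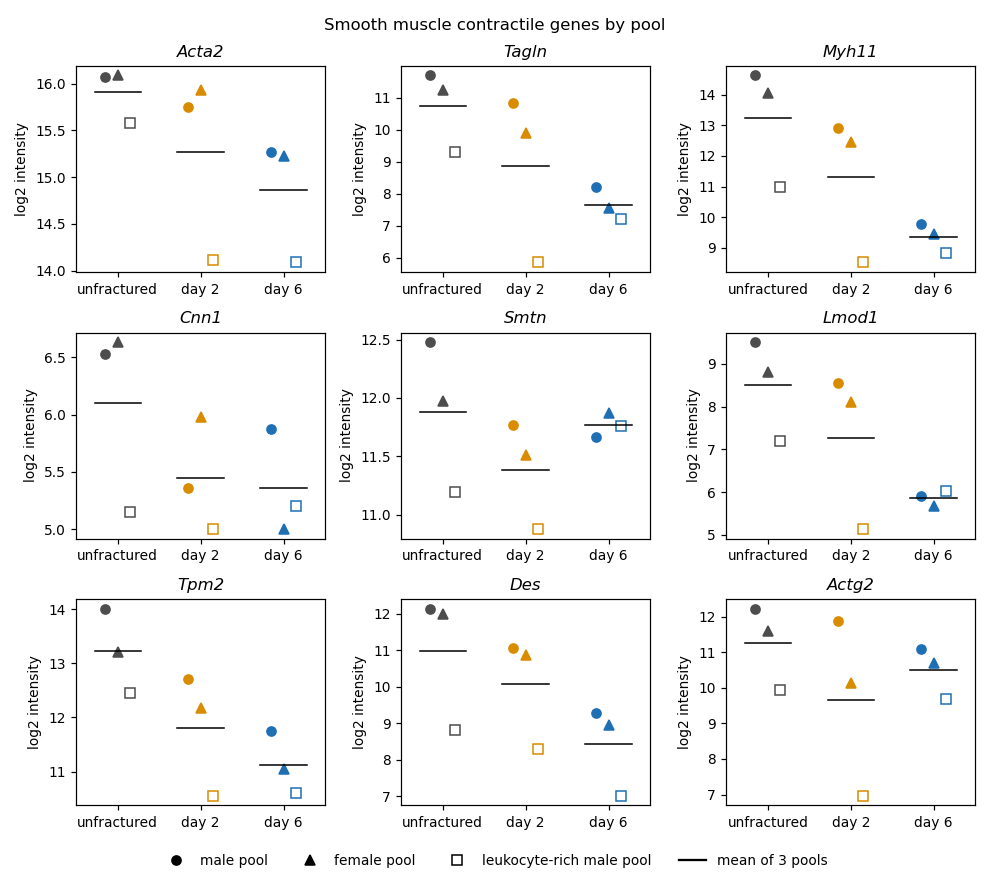
Log2 intensity (vertical axes, each with its own range) of the 9 measured genes in the 9 pools by group. Each point is a pool, marked by sex and leukocyte content, and the line is the mean of 3 pools; for Myh11 the unfractured pools lie between 11.001 and 14.64 and the day 6 pools between 8.82 and 9.78.

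How the labelled cells of an injured periosteum differ early on is the question of the first comparison, day 2 against unfractured. Over all 9 pools no member rose or fell (limma, 0 of 9 at an adjusted p under 0.05; background 0% of all genes lower and 0% higher), though the mean of each of the 9 was lower at day 2. Their median log2 change was -1.24, against 0.06 for all genes, and ran from -0.50 ± 0.36 for Smtn to -1.94 ± 1.24 for Myh11 (SE, n = 3 pools per group). At an unadjusted p under 0.05 there was 1 member, Tpm2 (-1.42 ± 0.61, limma adjusted p = 0.303), against 16.1% of all genes. No member had groups that did not overlap, against 7.69% of all genes lower and 10.9% higher. When arrays were scaled to a common median instead, Smtn turned to 0.26 and the other 8 stayed below 0, while the median of all genes was 0.66.

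In the 6 leukocyte-poor pools 2 members fell at day 2 (background 9.99% lower, 10.8% higher). Myh11 fell by 1.66 (± 0.29, limma adjusted p = 0.0279, n = 2 pools per group) and Des by 1.10 (± 0.20, adjusted p = 0.0293), with ranges of the adjusted p over all alternatives tried of 0.0182 to 0.805 and 0.0293 to 0.996. Tpm2 (-1.17 ± 0.40, adjusted p = 0.0866) and Tagln (-1.10 ± 0.40, adjusted p = 0.100) did not pass. The brightest probe of Acta2 gave -0.23 ± 0.17 and the 2nd brightest -0.72 ± 0.31, neither of which passed. Both day 2 pools lay below both unfractured pools for 8 of the 9 members, all but Actg2, against 28.6% of all genes lower and 37.7% higher. Among the 8 is Cnn1, whose values are near the limit of detection. In these pools signal moved with the group: raw 75th percentiles were 302 and 350 in the unfractured pools and 647 to 892 in the 4 fracture pools, and its part in the result was not tested.

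Day 6 against unfractured sets labelled cells of periosteum with soft callus against those of a periosteum left whole. Over all 9 pools, 0 of the 9 members passed with limma (background 0.625% lower, 2.19% higher), with the largest differences in Myh11 (-3.89 ± 1.24, adjusted p = 0.128), Tagln (-3.08 ± 1.17, adjusted p = 0.186), Lmod1 (-2.64 ± 0.88, adjusted p = 0.144), Des (-2.57 ± 1.08, adjusted p = 0.222) and Tpm2 (-2.10 ± 0.61, adjusted p = 0.105). These 5 had an unadjusted p under 0.05, as did 21% of all genes. All 9 means were lower at day 6, with a median log2 change of -2.10 against 0.04 for all genes. Cnn1 (-0.75 ± 0.46), Actg2 (-0.77 ± 1.13) and Smtn (-0.12 ± 0.36) had the smallest differences. The pools of Acta2, Tagln, Myh11, Lmod1 and Tpm2 did not overlap, which is 5 of 9 against 11.8% of all genes lower and 14.2% higher. Scaled to a common median, Smtn turned to 0.63 beside a median of 0.60 for all genes, and Actg2 was at -0.02.

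In the 6 leukocyte-poor pools 6 members fell at day 6 and none rose (background 14.1% lower, 16.4% higher). Myh11 fell by 4.74 (± 0.29, n = 2 pools per group), or 26.8-fold, with a limma adjusted p = 0.00189. Tagln fell by 3.58 (± 0.40, adjusted p = 0.00505), Lmod1 by 3.37 (± 0.31, adjusted p = 0.00353) and Des by 2.95 (± 0.20, adjusted p = 0.00213). The day 6 values of Lmod1 lay near the limit of detection. Tpm2 fell by 2.22 (± 0.40, adjusted p = 0.0146) and Acta2, by its brightest probe, by 0.83 (± 0.17, adjusted p = 0.0212). The 2nd brightest Tpm2 probe, fitted with all other probes, did not pass in these pools (-0.99 ± 1.54, limma adjusted p = 0.65). Actg2 (-1.02 ± 0.59, adjusted p = 0.240), Smtn (-0.46 ± 0.24, adjusted p = 0.207) and Cnn1 (-1.14 ± 0.36, adjusted p = 0.0648) did not pass. All 9 members had both day 6 pools below both unfractured pools, against 30.9% of all genes lower and 38.3% higher. That count includes Cnn1, which was detected in only 1 pool of each group, so its order is near the limit of detection.

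Single pools decide how many members pass. Without unfractured replicate 3, the leukocyte-rich pool, 4 members fell at day 6: Myh11, Des, Lmod1 and Tpm2, with log2 changes of -5.01, -3.65, -3.29 and -2.48 (limma adjusted p = 0.0324, 0.0413, 0.0489 and 0.0421), as 744 of the 10073 genes fell and 824 rose. Without day 2 replicate 1, which takes part only through the shared spread, 3 fell: Tagln, Lmod1 and Tpm2 (limma adjusted p = 0.0402, 0.0409 and 0.0488), against 115 genes that fell and 280 that rose. Over all alternatives the adjusted p of these comparisons ran from 9.29e-05 to 0.327 for Myh11, 0.000471 to 0.409 for Tagln, 0.000125 to 0.357 for Lmod1, 0.00109 to 0.297 for Tpm2, 0.000527 to 0.473 for Des and 0.0105 to 0.525 for Acta2. The sign of these 6 differences was negative in every alternative.

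**Figure D3:**
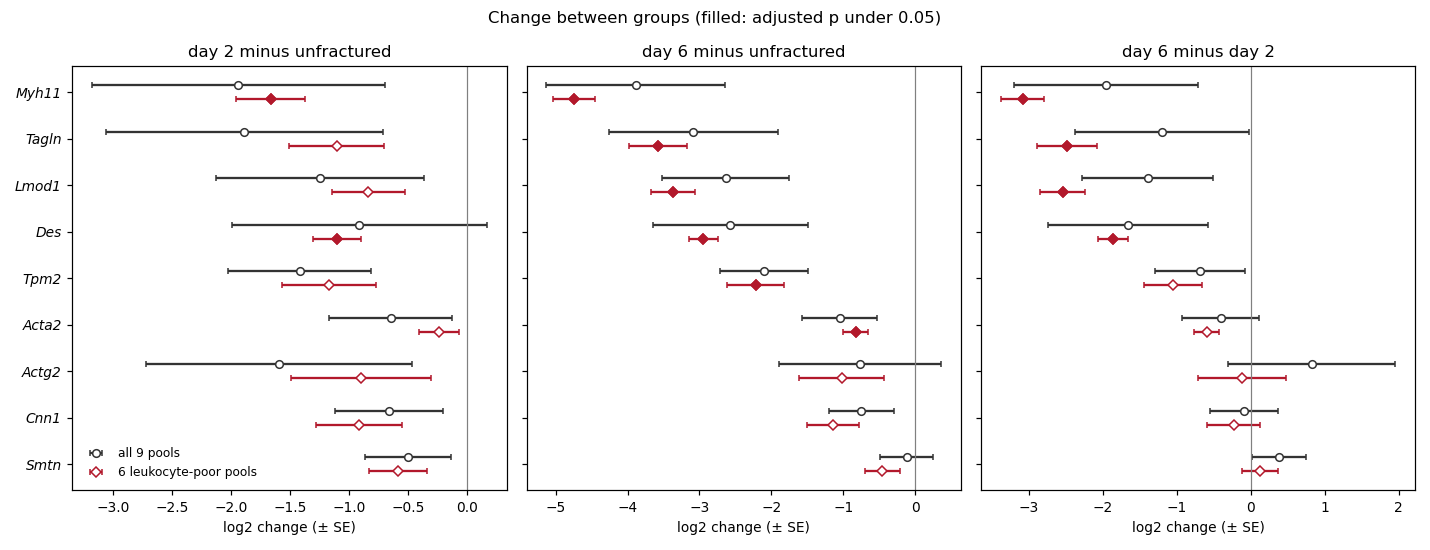
Log2 change with its SE (horizontal axes) of the 9 genes, in order of the change from unfractured to day 6, for the 3 comparisons. Circles are fits over all 9 pools and diamonds over the 6 leukocyte-poor pools, filled where the limma adjusted p was under 0.05; no circle is filled, and 2, 6 and 4 diamonds are.

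Between day 2 and day 6, 0 of the 9 members passed over all 9 pools (limma, background 0.109% lower, 1.31% higher), none had an unadjusted p under 0.05, against 11.6% of all genes, and none had groups that did not overlap, against 13.2% of all genes lower and 11.8% higher. Blocked by replicate number, the calls over all genes went from 132 higher and 11 lower to 85 and 4, and those of members stayed at 0. The mean was lower at day 6 for 7 members and higher for Smtn (0.38 ± 0.36) and Actg2 (0.83 ± 1.13), and the median of the 9 was -0.68 against -0.04 for all genes. In the 6 leukocyte-poor pools 4 fell (background 1.04% lower, 2.44% higher). They were Myh11 (-3.08 ± 0.29, limma adjusted p = 0.0124), Lmod1 (-2.54 ± 0.31, adjusted p = 0.0200), Tagln (-2.48 ± 0.40, adjusted p = 0.0412) and Des (-1.85 ± 0.20, adjusted p = 0.0165). Their adjusted p ran over the alternatives from 0.00087 to 0.938, 0.000519 to 0.962, 0.00578 to 0.992 and 0.00605 to 0.894. Acta2 had -0.59 ± 0.17 (adjusted p = 0.126), and for Actg2 the difference of the means was -0.12 ± 0.59 in these pools, the other sign than over all 9. Day 6 pools lay below day 2 pools without overlap for 6 members, against 34.2% of all genes lower and 29.6% higher.

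Pools of the same sex and leukocyte class were also set side by side, 1 pool each, which allows no test. The class, rich or poor, rests on the macrophage and leukocyte genes alone, and the sets were not matched for neutrophil genes. In the male leukocyte-poor set the neutrophil mean was 12.57 in the unfractured, 10.15 in the day 2 and 9.68 in the day 6 pool. In the same order it was 10.65, 10.19 and 10.07 in the female set, and 12.54, 14.49 and 12.15 in the leukocyte-rich set. The part of neutrophil RNA in these differences was not tested. From unfractured to day 2 all 9 members were lower in the male, the female and the leukocyte-rich set, where 44.7% to 52.4% of all genes were lower. From unfractured to day 6 they were lower 9 of 9, 9 of 9 and 7 of 9 times, with medians of -2.27, -2.16 and -1.49, where 45.4%, 46.9% and 53.2% of all genes were lower. In the leukocyte-rich set, Smtn (0.56) and Cnn1 (0.04) were the exceptions, and Myh11 was lower by less than in the other sets (-2.18, against -4.86 in the male and -4.63 in the female set). From day 2 to day 6 the sets parted: 8 of 9 members were lower in the male and 7 of 9 in the female set, and 2 of 9, Acta2 (-0.02) and Des (-1.28), in the leukocyte-rich set, against 51.5%, 53.8% and 51.1% of all genes. In the leukocyte-rich set Actg2 was 2.73 and Tagln 1.35 higher at day 6 than at day 2. Scaled to a common median, 4, 8 and 8 members were lower at day 2 and 7, 8 and 8 at day 6 (male, female and leukocyte-rich set), and at day 6 against day 2 it was 7, 7 and 2. Below the median difference of all genes under this scaling were 9, 9 and 9 members at day 2 and 9, 9 and 8 at day 6. For day 6 against day 2 that count was 7, 7 and 1. Day 2 replicate 1 had both the highest leukocyte mean and the lowest contractile mean of all 9 pools.

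To ask whether a member and Acta2 differed by unequal amounts, the log2 value of Acta2 on the same array was taken off each gene. At day 6 against unfractured, 0 of 8 members passed over all 9 pools (limma, background 0.0199% lower, 4.55% higher), and 3 had an unadjusted p under 0.05 (Myh11, Tagln and Lmod1), as did 30.4% of all genes. Myh11 came nearest, at -2.84 ± 0.85 relative to Acta2 (limma adjusted p = 0.0701), followed by Tagln (-2.04 ± 0.80, adjusted p = 0.126). In the 6 leukocyte-poor pools 5 members were lower relative to Acta2 (background 4.88% lower, 55.7% higher): Myh11 at -3.91 ± 0.33, Tagln at -2.75 ± 0.44, Lmod1 at -2.54 ± 0.34, Des at -2.12 ± 0.22 and Tpm2 at -1.39 ± 0.42 (limma adjusted p = 0.00148, 0.00471, 0.00311, 0.00214 and 0.0337). These values rest on an Acta2 probe that lay at 98.3% and 100% of the array maximum in both unfractured pools. It fell by less than the other 3 Acta2 probes, so none of these 5 calls is read as unequal change. The calls of Lmod1, Des and Tpm2 were not made with the 2nd brightest probe.

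With the 2nd brightest Acta2 probe in its place, 2 of these 5 members passed in the 6 pools (background 0.635% lower, 90.5% higher). Over all 9 pools Myh11 had -1.65 ± 0.99 (limma adjusted p = 0.128) and Tagln -0.85 ± 0.99 (adjusted p = 0.412), and Tpm2 turned to 0.14. In the 6 pools Myh11 (-2.38 ± 0.54, adjusted p = 1.99e-05) and Tagln (-1.22 ± 0.54, adjusted p = 0.0269) were lower relative to Acta2, and Smtn (1.90 ± 0.54, adjusted p = 0.000617), Actg2 (1.34 ± 0.54, adjusted p = 0.0156) and Cnn1 (1.21 ± 0.54, adjusted p = 0.0279) were higher, while Lmod1, Des and Tpm2 did not pass. In this fit 90.5% of all genes were higher, and limma gave all genes the same SE. Its p-values therefore do not use each gene's own spread over the n = 2 pools per group. Nothing is read from the 3 higher members. The 2 lower calls, Myh11 and Tagln, are not read as unequal change either, and neither passed over all 9 pools. Over all alternatives the adjusted p ran from 3.8e-09 to 0.275 for Myh11, 3.07e-08 to 0.412 for Tagln, 0.00031 to 0.654 for Smtn, 0.0156 to 0.976 for Actg2 and 0.00739 to 0.996 for Cnn1, whose lowest value belongs to the fit with array weights, where Cnn1 was called lower (-0.64). Relative to Acta2, Myh11, Tagln and Des were lower and Smtn higher in every alternative. The sign of Tpm2, Lmod1, Cnn1 and Actg2 changed in at least 1, that of Tpm2 under median scaling as well (0.074).

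**Figure D4:**
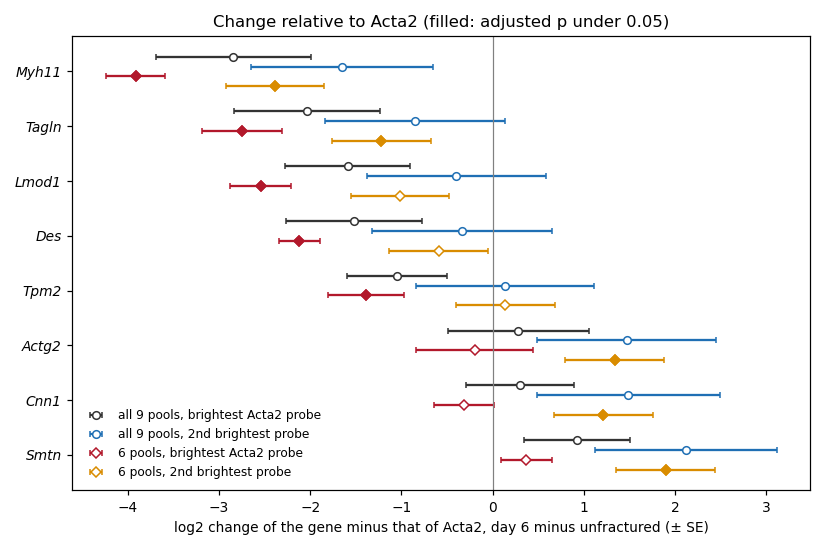
Log2 change from unfractured to day 6 of 8 genes minus that of Acta2, with its SE (horizontal axis), with Acta2 read by its brightest or 2nd brightest probe and over 9 or 6 pools. Filled points had a limma adjusted p under 0.05; Myh11 lies left of 0 in all 4 fits (-3.91 to -1.65) and Smtn right of 0 (0.37 to 2.12).

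Relative to Acta2, 0 of 8 members passed at day 2 over all 9 pools (limma, 0 at an unadjusted p under 0.05 against 10.8% of all genes, background 0% lower and 0% higher). In the 6 pools 2 were lower (background 5.86% lower, 21.3% higher), but the brightest Acta2 probe lay at 97.6% to 100% of the maximum on all 4 of these arrays, and nothing is read from that count. With the 2nd brightest probe 0 were lower and 0 higher there (background 1.37% lower, 24.5% higher), with a median of -0.29. The sign of each of the 8 differences at day 2 changed in at least 1 alternative, so no single value is given. From day 2 to day 6, 0 of 8 passed over all 9 pools (0 at an unadjusted p under 0.05 against 6.22% of all genes, background 0% lower, 0.794% higher) and 4 were lower in the 6 pools (background 0.695% lower, 20.8% higher): Myh11 at -2.49 ± 0.33, Lmod1 at -1.94 ± 0.34, Tagln at -1.89 ± 0.44 and Des at -1.26 ± 0.22 (limma adjusted p = 0.0134, 0.0217, 0.0376 and 0.0225). Both day 2 pools had that probe at 97.6% and 98.2% of the maximum. With the 2nd brightest Acta2 probe the 6 pools gave 1 lower and 3 higher (background 0.129% lower, 83.8% higher). Here too limma gave all genes the same SE, and nothing is read from these counts.

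Genes that work beside the members were grouped by role. These lists were described by counts and medians alone, to be read against the shares of all genes that passed with limma: 0.625% lower and 2.19% higher at day 6 over 9 pools, 14.1% and 16.4% over the 6, and 9.99% and 10.8% at day 2 over the 6. Of 18 measured partners of the contractile apparatus 1 fell from unfractured to day 6 over all 9 pools and 0 rose, with a median log2 change of -0.88: Vcl, vinculin, which anchors actin at adhesions, fell by 1.23 (± 0.27, limma adjusted p = 0.0487). In the 6 pools 8 of the 18 fell and 1 rose (Csrp2, 0.87 ± 0.20, adjusted p = 0.0267), with a median of -1.15. Among those that fell were Mylk, the kinase that switches smooth muscle myosin on (-3.08 ± 0.33, limma adjusted p = 0.00465), Pgm5, which sits at muscle adhesions (-4.40 ± 0.44, adjusted p = 0.00401), and Csrp1 (-2.05 ± 0.33, adjusted p = 0.0108). Pgm5 was detected in only 2 of the 3 day 6 pools (6.31, 6.17 and 5.54 in replicates 1 to 3), so its size there is near the limit of detection. Mylk measured 14.27, 13.80 and 12.42 before fracture, 10.43, 13.19 and 12.40 at day 2, and 11.40, 11.06 and 10.85 at day 6, with all day 6 pools below all unfractured ones.

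Of 12 measured genes of contraction signalling 0 passed over all 9 pools at day 6, with a median of -0.96, and 7 fell and 1 rose in the 6 pools (the calcium pump Atp2b4, 0.73 ± 0.18, limma adjusted p = 0.0316), with a median of -1.84. Mrvi1 fell there (-3.55 ± 0.29, limma adjusted p = 0.00301). Pln, phospholamban, which restrains the calcium pump of the reticulum, fell as well (-3.99 ± 0.55, limma adjusted p = 0.00725), but was detected in only 1 of the 3 day 6 pools, so its size there is near the limit of detection. Ppp1r14a, an inhibitor of myosin phosphatase (-3.09 ± 0.47, adjusted p = 0.00942), and Kcnmb1, a subunit of the large-conductance potassium channel (-2.65 ± 0.44, adjusted p = 0.0122), fell too. In day 6 replicates 1 to 3 Kcnmb1 measured 5.67, 6.13 and 5.92 and Ppp1r14a 5.43, 6.38 and 6.50. The lowest detected signals there were 5.54, 5.55 and 5.66. The size of Kcnmb1 is therefore near the limit of detection, as is Ppp1r14a in replicate 1. At day 2, in the same pools, 3 of the list fell: Mrvi1 (-1.41 ± 0.29, limma adjusted p = 0.0329), Rgs4, a damper of G protein signals (-1.69 ± 0.40, adjusted p = 0.0403), and the kinase Rock1 (-1.10 ± 0.18, adjusted p = 0.0245). Csrp2, Atp2b4 and Rock1 were singled out after their values were seen, as was Fhl2 among the regulators.

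Of 11 regulators that act through SRF and myocardin 0 passed over all 9 pools at day 6. Myocd, myocardin, measured 11.79, 11.09 and 8.54 in unfractured pools, 5.81, 10.82 and 9.98 at day 2, then 6.49, 7.60 and 7.47 at day 6. Its day 6 pools lay below the unfractured ones, and its lowest value, as for Tagln and Myh11, was in day 2 replicate 1. Its log2 change was -3.29 ± 1.28 over all 9 pools (limma adjusted p = 0.192), and it fell by 3.90 (± 0.37, adjusted p = 0.00387) in the 6. Srf fell by 0.99 (± 0.23, adjusted p = 0.0272) and Fhl1 by 0.82 (± 0.18, adjusted p = 0.0240) in the 6 pools, which with Myocd were the 3 that fell, while 1 rose (Fhl2, 1.13 ± 0.21, adjusted p = 0.0165). The list's median was -0.30 over 9 pools and -0.33 over 6.

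Of 12 measured genes of non-muscle actin and myosin 0 passed over all 9 pools at day 6, with a median of -0.39, and 2 fell in the 6 pools (Tpm3, -0.80 ± 0.17, limma adjusted p = 0.0237, and Myl12b, -0.68 ± 0.18, adjusted p = 0.0383), a share near that of all genes, with a median of -0.47. Actb, the beta actin of all cells, had -0.07 ± 0.21 over 9 pools and 0.02 ± 0.18 over 6, and measured 15.71 to 16.07 in all pools. Its probe lay at 60.7% to 99.8% of the array maximum, where differences may be compressed, so no steady level is read from it. The 9 measured other targets of SRF had a median of -0.50, and 1 fell over 9 pools (Vcl) and 4 over 6 (Vcl, Srf, Junb and Ankrd1); Vcl and Srf also stand in the lists above. Genes of myofibroblast and wound matrix went the other way: 2 of 13 rose over 9 pools and 8 over 6, with medians of 0.97 and 1.42. The 2 were Postn, a matrix protein of periosteum (at least 2.56-fold higher, limma adjusted p = 0.0107), and Tgfbi (1.30 ± 0.25, adjusted p = 0.0288). Postn was not detected in any unfractured or day 2 pool, and how well its probe reads the gene was not tested.

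Markers of other cells moved in the same comparison. Of 13 measured pericyte and mural cell genes 1 rose over 9 pools at day 6, the proteoglycan Cspg4 (1.98 ± 0.35, limma adjusted p = 0.0228), and 0 fell. In the 6 pools 9 fell and 1 rose, among them Rgs5, a pericyte marker (-2.55 ± 0.41, limma adjusted p = 0.0110), and the receptor Notch3 (-2.99 ± 0.31, adjusted p = 0.00420). At day 2, 6 of the 13 fell in these pools and 0 over all 9. The list's mean lay between 8.85 and 10.70 in unfractured pools and 8.88 and 9.14 at day 6. Of 14 measured endothelial genes 1 fell over 9 pools, Vwf (-3.44 ± 0.57, adjusted p = 0.0189), and 12 fell in the 6, among them Pecam1, an adhesion molecule of endothelium (-3.89 ± 0.46, adjusted p = 0.00523). At day 2, 12 fell in the 6 pools and 0 over all 9. The endothelial mean was 9.93 to 11.29 in unfractured pools and 8.23 to 10.26 at day 6. Pecam1 itself measured 10.48 to 11.96 in unfractured pools and 7.67 to 11.31 at day 6. The part of these markers in the contractile differences was not tested.

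Genes of skeletal and cardiac muscle, cells that also use Des and Tpm2, were read beside them. Their 15 measured genes had a median of 1.05 at day 2, with 14 above 0, and of -1.28 at day 6, and 0 passed over all 9 pools at either time. The list's mean was 6.64 to 9.65 in unfractured pools, 8.10 to 9.07 at day 2 and 6.25 to 7.71 at day 6. In the 6 pools 1 rose at day 6 (Actc1, 2.03 ± 0.49, limma adjusted p = 0.0309) and 2 fell. Of 10 neutrophil genes 0 passed over 9 pools at day 6 and 2 fell in the 6, and of 17 macrophage and leukocyte genes 0 passed over 9 pools at day 6 while 4 rose in the 6. At day 2, beside the lower Myh11 and Des of the 6 pools, 3 of the 17 rose there: Adgre1 (3.03 ± 0.45, limma adjusted p = 0.0217), C1qb (3.53 ± 0.50, adjusted p = 0.0210) and C1qc (1.79 ± 0.39, adjusted p = 0.0354). Of the muscle genes Actc1 rose at day 2 too (2.62 ± 0.49, limma adjusted p = 0.0294). These 4 genes were chosen after their values were seen, and their part in the contractile differences was not tested. Of 10 cartilage genes 9 rose over all 9 pools, with a median of 6.46, and 10 over the 6.

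**Figure D5:**
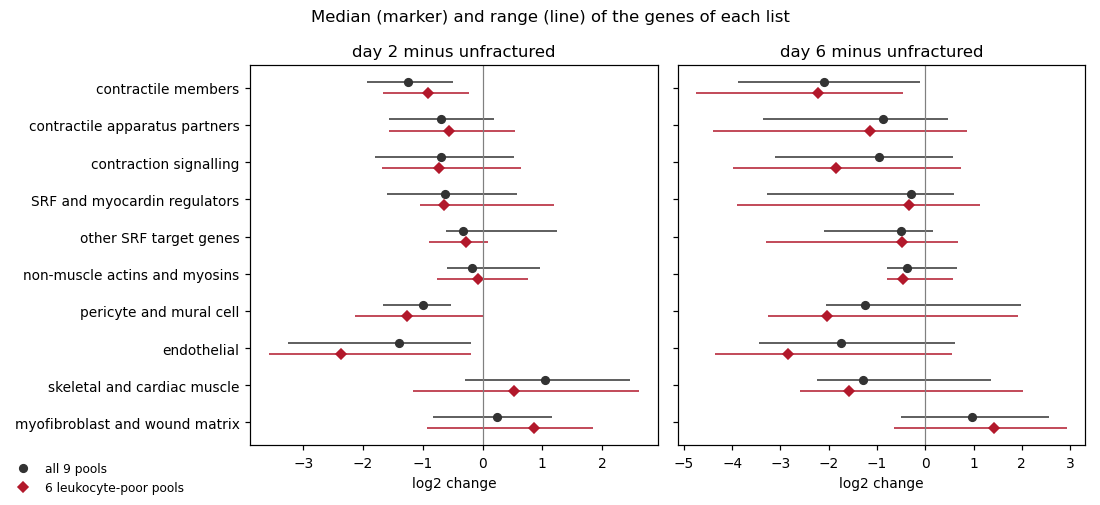
Median (marker) and range (line) of the log2 changes of the measured genes of 10 lists (vertical axis), for day 2 and day 6 against unfractured. Circles are fits over all 9 pools and diamonds over the 6 leukocyte-poor pools; at day 6 the contractile genes have medians of -2.10 and -2.22 and the myofibroblast genes of 0.97 and 1.42.

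The genes whose values were most like those of Acta2 over the 9 pools, by Pearson's r, were Cavin1, which builds caveolae (r = 0.9936), the collagen receptor Ddr2 (0.9839), the adhesion protein Parva (0.9817), Ppl (0.9763), Rarres2 (0.9762), Radil (0.97), Xpnpep2 (0.9695) and Lysmd2 (0.9665), and the least alike were Tmem179b (-0.9787), Septin1 (-0.9694) and Tecr (-0.9645). Among the members r was 0.9136 for Tagln, 0.8938 for Des, 0.8911 for Tpm2, 0.8872 for Myh11, 0.8398 for Lmod1, 0.7785 for Actg2, 0.6974 for Cnn1 and 0.5258 for Smtn. This order rests on the Acta2 probe near the array maximum on 4 arrays. With Acta2 read by its 2nd brightest probe, the 8 most alike ranked 37 (Rarres2) to 445 (Lysmd2) of all genes, while Tagln (0.9806) and Myh11 (0.9798) ranked 5 and 7 and Cavin1 63 (0.9451). The 9 pools share normalisation and the division by leukocyte content. Over the 6 leukocyte-poor pools r was 0.9691 for Myh11, 0.9396 for Tagln and 0.9671 for Cavin1, and under median scaling 0.818, 0.7304 and 0.5543. Over the 6 pools r was 0.3979 for Actg2 and 0.4011 for Smtn, and under median scaling it was 0.1045 for Smtn and 0.1967 for Ddr2.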

How the data were processed

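Per the labels, amplified and biotinylated RNA of each pool of sorted cells was read on 1 Illumina BeadChip array. The authors deposited non-normalised probe intensity values, each beside its detection p-value, exported from GenomeStudio per the submitters' processing notes, and a value table of linear intensity, quantile-normalised before deposition as its column medians and ranks show. Genome build and other steps are not given in the sources used here.

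From the non-normalised table, background was estimated from the detection p-values and an offset of 16, quantile normalisation and log2 followed (neqc of limma 3.58.1 in R 4.3.3). Of 25697 probes 23978 had 1 gene symbol in the platform annotation, 0 several and 1719 none. Probes detected on at least 3 of 9 arrays were kept (14519), and per gene the one with the highest mean was read. limma's moderated test (lmFit and eBayes, two-sided, 6 residual degrees of freedom) compared the group means of all 9 arrays, with Benjamini-Hochberg adjustment over all 10073 genes; "rose" and "fell" mean an adjusted p under 0.05. SEs are those of the moderated fit. Relative to Acta2, its log2 value on the same array was subtracted first. The fit was tested on simulated data. Levels of different probes are not compared.

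The members and lists were chosen with earlier results of these data known. Of 193 list genes 160 were measured, and 7 were matched under another symbol (RefSeq synonyms). The genes named are all members, up to 4 per list and comparison by adjusted p, the 8 genes most and the 3 least like Acta2, and Actb, Actg1, Ptprc, Lyz2, Pecam1, Rgs5 and Acta1; genes outside this rule are said to be so. A probe not detected on any array of 1 group is given as a lower bound of the fold, against the lowest detected signal. Alternatives were the background, scaling, detection filter, probe, samples in the fit, sex, replicate block, array weights each array left out and the 6 leukocyte-poor arrays, and, added after seeing the data, the other Acta2 probes. Within groups, arrays correlated at 0.8539 to 0.9903 over genes, with 0 identical columns; the labels do not say that pools of a group are independent beyond the animals pooled. Deviations from group means correlated between same-numbered pools of day 2 and day 6 at 0.634, 0.524 and 0.512. For unfractured against day 2 they ran from -0.306 to 0.402, and against day 6 from -0.276 to 0.262. Same-numbered pools of day 2 and day 6 share both sex and leukocyte class, while unfractured pools share both with neither. A pairing cannot be told apart from these shared traits, and the labels state none. The replicate block is therefore given as an alternative only.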

Additional observations from a re-analysis of the deposited data

How the results depend on the processing

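Over all 9 pools no member passed in any comparison, and most alternatives kept that count at 0. Without the leukocyte-rich arrays 2, 6 and 4 members were lower (day 2 and day 6 against unfractured, day 6 against day 2), and relative to Acta2 2, 5 and 4. With array weights 3, 7 and 5 were lower, and relative to Acta2 4 lower, 6 lower and 1 higher, and 4 lower and 2 higher. The search for weights (0.158 to 5.87) stopped before convergence in 1 of 2 fits. Of all 10073 genes, 2915 were called higher and 2218 lower at day 2 in the plain fit with weights. At day 6 against unfractured it was 2852 and 2502, and at day 6 against day 2 1576 and 1859. Leaving out 1 array gave 0 to 4 members lower at day 6 against unfractured and 0 to 2 relative to Acta2, where no background correction gave 1 lower, no detection filter 1 lower, only the groups compared 2 lower, and median scaling 1 higher (1 higher at day 2 as well). With Acta2 read by its 3rd brightest probe 2 were higher, by its dimmest 1 lower and 1 higher, and by its 2nd brightest in the 6 pools 2 lower and 3 higher (1 lower and 3 higher for day 6 against day 2, 0 and 0 at day 2). Shares of all genes are not given here for the counts relative to Acta2 with array weights, other processing, left-out arrays, or the 3rd brightest and dimmest probes. Nothing is read from those counts. The causes of these shifts were not tested. The replicate block left the members' counts at 0 and changed no call of a member (Myh11 at day 6 against day 2 -1.95, limma adjusted p = 0.614; all its alternatives 0.00087 to 0.938). Median scaling moved the median of all genes to 0.66, 0.60 and -0.08 and the calls at day 6 against unfractured to 602 higher and 24 lower, from 221 and 63; these were 114 and 25 with only the groups compared, 170 and 34 with sex in the model, 50 to 824 and 3 to 744 leaving out 1 array, and 1652 and 1416 without the leukocyte-rich arrays. The following differences changed sign, 1 of them past the threshold with the sign turned (Cnn1 relative to Acta2 with array weights, limma adjusted p = 0.00739). Smtn was at 0.26 (day 2) and 0.63 (day 6) under median scaling and 0.18 at day 6 without unfractured replicate 1 (-0.46 to 0.18 leaving out 1 array). For day 6 against day 2, Acta2 was at 0.081 under median scaling, Actg2 at -0.53 without day 2 replicate 1 (-0.53 to 1.94 leaving out 1 array) and -0.12 without the leukocyte-rich arrays, and Cnn1 at 0.18 without day 2 replicate 3 and 0.090 without day 6 replicate 3 (-0.35 to 0.18). Relative to Acta2 at day 6 against unfractured, Tpm2 was at 0.074 (median scaling), 0.14 (2nd brightest Acta2 probe, 9 or 6 pools) and 0.052 (3rd brightest), Lmod1 at 0.048 (deposited value table), Cnn1 at -0.64 (array weights), -0.32 (without the leukocyte-rich arrays), -0.0079 (without unfractured replicate 3) and -0.0073 (without day 6 replicate 1), and Actg2 at -0.0049 (array weights), -0.21 (without unfractured replicate 3, and up to 0.69 leaving out 1 array) and -0.19 (without the leukocyte-rich arrays). For day 6 against day 2 relative to Acta2, Tpm2 was at 0.44 and 0.59 (2nd brightest probe, 9 and 6 pools) and Cnn1 at -0.16 (median scaling) and -0.19 (array weights). Of the other values, 35 became called and 530 kept direction and side of the threshold for the plain comparisons, and 43 and 339 relative to Acta2. The r of members and other genes with Acta2 changed with the pools and scaling too (Smtn 0.5258, then 0.4011 in the 6 pools and 0.1045 under median scaling; Actg2 0.7785, then 0.3979 and 0.5529; Ddr2 0.9839, then 0.9355 and 0.1967). Cnn1 is near the limit of detection and the brightest Acta2 probe near that of the scanner.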

Other observations

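Of the 3 probes of Tpm2 the 2nd brightest went against the brightest at day 2 against unfractured, and this was noticed after the values were seen. It measured 5.48 (not detected), 10.54 and 6.60 in unfractured replicates 1 to 3, 7.72, 8.81 and 9.32 at day 2 and 5.80, 7.31 and 6.73 at day 6, with a log2 change of 1.07 ± 1.13 from unfractured to day 2 where the brightest had -1.42 ± 0.61. At day 6 the mean of both was lower than in unfractured pools (-0.93 and -2.10) and than at day 2 (-2.001 and -0.68). In these 9 pools its values ran with the mean of the 15 skeletal and cardiac muscle genes (r = 0.943, rho = 0.9, given without a test; r = 0.9 in the 7 pools left without unfractured replicate 2 and day 6 replicate 1, those farthest from the median of that mean), a list that does not hold Tpm2. For the brightest Tpm2 probe r was 0.355, and for the 14 other probes of the members it ran from -0.044 to 0.672, the highest being that of Des. The 3rd Tpm2 probe was not detected on any array. Which transcripts these probes read was not tested.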
